A study of Homo sapiens with 18 samples.

Results

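The data described here are the transcript levels of the Arf GTPases, of the GTPase-activating proteins (GAPs) that act on them and of their guanine nucleotide exchange factors (GEFs). The members were the 42 genes of a hand-picked list whose symbol named a row of the deposited table, 5 GTPases, 23 GAPs and 14 GEFs, out of 19289 gene symbols in all. They were measured with 47 of the 21111 probes: 37 members had 1 probe and 5 (ASAP2, ARFGAP1, GIT1, ARFGEF2 and IQSEC2) had 2. The libraries came from the triple-negative breast cancer (TNBC) cell lines BT549, Hs578T and SUM149PT, established from human breast tumors. In each line, cells were transfected with 50 nM siASAP1, a pooled siRNA against the Arf GAP gene ASAP1, or with siCtrl, which the study's methods describe as a pool of siRNAs against kinases. RNA was collected after 72 h from 3 cultures per group, which gave 6 groups and 18 libraries. All libraries were transfected with the same reagent and the silencing is transient. Each model is a single established line. In such bulk samples, fewer cells of a kind and less RNA per cell cannot be told apart.

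Arf proteins are small GTPases that recruit coat proteins and lipid-modifying enzymes to membranes when GTP is bound. Arf GEFs load them with GTP, Arf GAPs make them hydrolyse it, and each cycle of loading and hydrolysis sets where and how long a coat or an actin structure forms. ARF1 and its close relatives act mainly at the Golgi, and ARF6 acts at the plasma membrane and endosomes. ASAP1 belongs to a GAP family that also holds ASAP2 and ASAP3. It is known for linking Arf activity to focal adhesions and the actin cytoskeleton.

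TempO-Seq ligates a pair of detector oligonucleotides on each target RNA and counts the ligated pairs, so each probe reads 1 short site and no length scaling applies. A normalized count is the number of reads of a probe divided by a size factor of its library. Ligation differs between probes, so levels are compared between libraries and not between genes. The libraries held from 4.63 to 12.5 M reads (median 6.63 M). With 3 reads taken as the floor of a library, values under 1.73 to 4.80 normalized counts, depending on the library, cannot be told from 0. Log2 fold changes (Log2 FC) are differences of mean log2(normalized count + 1), siASAP1 minus siCtrl, and understate the change of low probes. Within each line they were tested with limma (18 libraries also in a single fit), after probes whose mean normalized count lay under 10 were dropped. The study's limits, an absolute Log2 FC over 1 together with p under 0.05 before adjustment, were kept for counts of calls. The study took its p from the Wald test of DESeq2, and the p here is that of limma on log2 values. A gene that misses the limits here may therefore have met them in the study. Adjusted p-values are Benjamini-Hochberg values over all probes tested.

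Libraries that stood apart have to be named first. The library labelled SUM149PT siCtrl replicate 2 held 189 normalized counts of ASAP1, against 1087 and 1314 in the other siCtrl libraries of that line, so its level lay with those labelled siASAP1 (282, 468 and 184). Over all tested probes it correlated with the other siCtrl libraries at r = 0.77 and 0.75, and with SUM149PT siASAP1 replicates 1 and 3 at r = 0.88 and 0.88. The library labelled SUM149PT siASAP1 replicate 2 correlated with siCtrl replicates 1 and 3 at r = 0.89 and 0.89, above its r of 0.83 and 0.82 with the other siASAP1 libraries. In BT549, siASAP1 replicate 1 correlated with siCtrl replicates 2 and 3 at r = 0.95 and 0.95, and with the other siASAP1 libraries at r = 0.87 and 0.84, yet held the least ASAP1 of its line. In Hs578T, siCtrl replicate 3 correlated with the other siCtrl libraries at r = 0.90 and 0.88, and with the siASAP1 libraries at r = 0.90, 0.90 and 0.91. The points of these correlations are probes of the same libraries, so they serve as a description. What set these libraries apart was not tested. An exchange of labels between the SUM149PT libraries numbered 2 was not tested either, and the SUM149PT values and fold changes are given with the labels as deposited. The main counts that rest on these libraries are given with and without them.

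Markers of the cell lines matched their names in part. The epithelial gene EPCAM reached 18650 to 36679 normalized counts in the 6 SUM149PT libraries, at most 77.8 in Hs578T and at most 2.52 in BT549, and CDH1 was read in SUM149PT alone (87.9 to 263). The epithelial gene KRT5 was also read in SUM149PT alone, with 0 to 50 reads per library and 0 in siCtrl replicate 2. The better-read probe of the mesenchymal gene VIM ran from 27346 to 218740 in BT549 and Hs578T and from 791 to 2965 in SUM149PT. The other mesenchymal gene looked at, ZEB1, did not mark BT549 or Hs578T. It had 3 reads in Hs578T siCtrl replicate 1 and none in any other library. Among the receptors that define TNBC, PGR was at or near 0 throughout, ERBB2 lay between 14.6 and 138.5, and one of the ESR1 probes was at 0 in BT549, at most 13.1 in Hs578T and from 24.3 to 190.5 in SUM149PT. The other ESR1 probe was at 0 in all libraries. The leukocyte gene PTPRC had at most 2.67 normalized counts. Of the endothelial and platelet gene PECAM1, probe PECAM1_14079 held at most 2.10 in BT549, 13.9 to 46.9 in Hs578T and 25.6 to 103 in SUM149PT, while the other probe was at 0 in all libraries. Between the treatments, 3 of these marker probes met the study's limits, EPCAM_20742 in Hs578T (Log2 FC 1.42) and CDH1_1186 (1.24) and VIM_18185 (-1.48) in SUM149PT. Without SUM149PT siASAP1 replicate 2 the CDH1 probe no longer met them (1.15), and without BT549 siASAP1 replicate 1 VIM_18185 also met them in BT549 (1.24). The part of these markers in the results on Arf genes was not tested.

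Over the 18 libraries, 30 probes of 28 members had a mean of at least 10 normalized counts: 4 GTPases, 15 GAPs and 9 GEFs. Within a line, 28 members passed for BT549, 27 for Hs578T and 27 for SUM149PT. The 10 members that stayed under it in every line were ARF6, the GAPs ASAP3, ACAP1, AGAP3, ADAP1 and ADAP2, and the GEFs CYTH1, IQSEC3, PSD and FBXO8. Of these, ADAP1 and IQSEC3 had no read in any library, and ACAP1 was read in 1 library. ARF6, the plasma membrane Arf, had from 0 to 26 reads per library and was seen in 14 of 18 libraries. The second probes of ASAP2, GIT1 and IQSEC2 also stayed under the filter, with at most 13, 9 and 12 reads. A low value of a probe does not separate a low transcript level from poor ligation at its site.

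**Figure D1:**
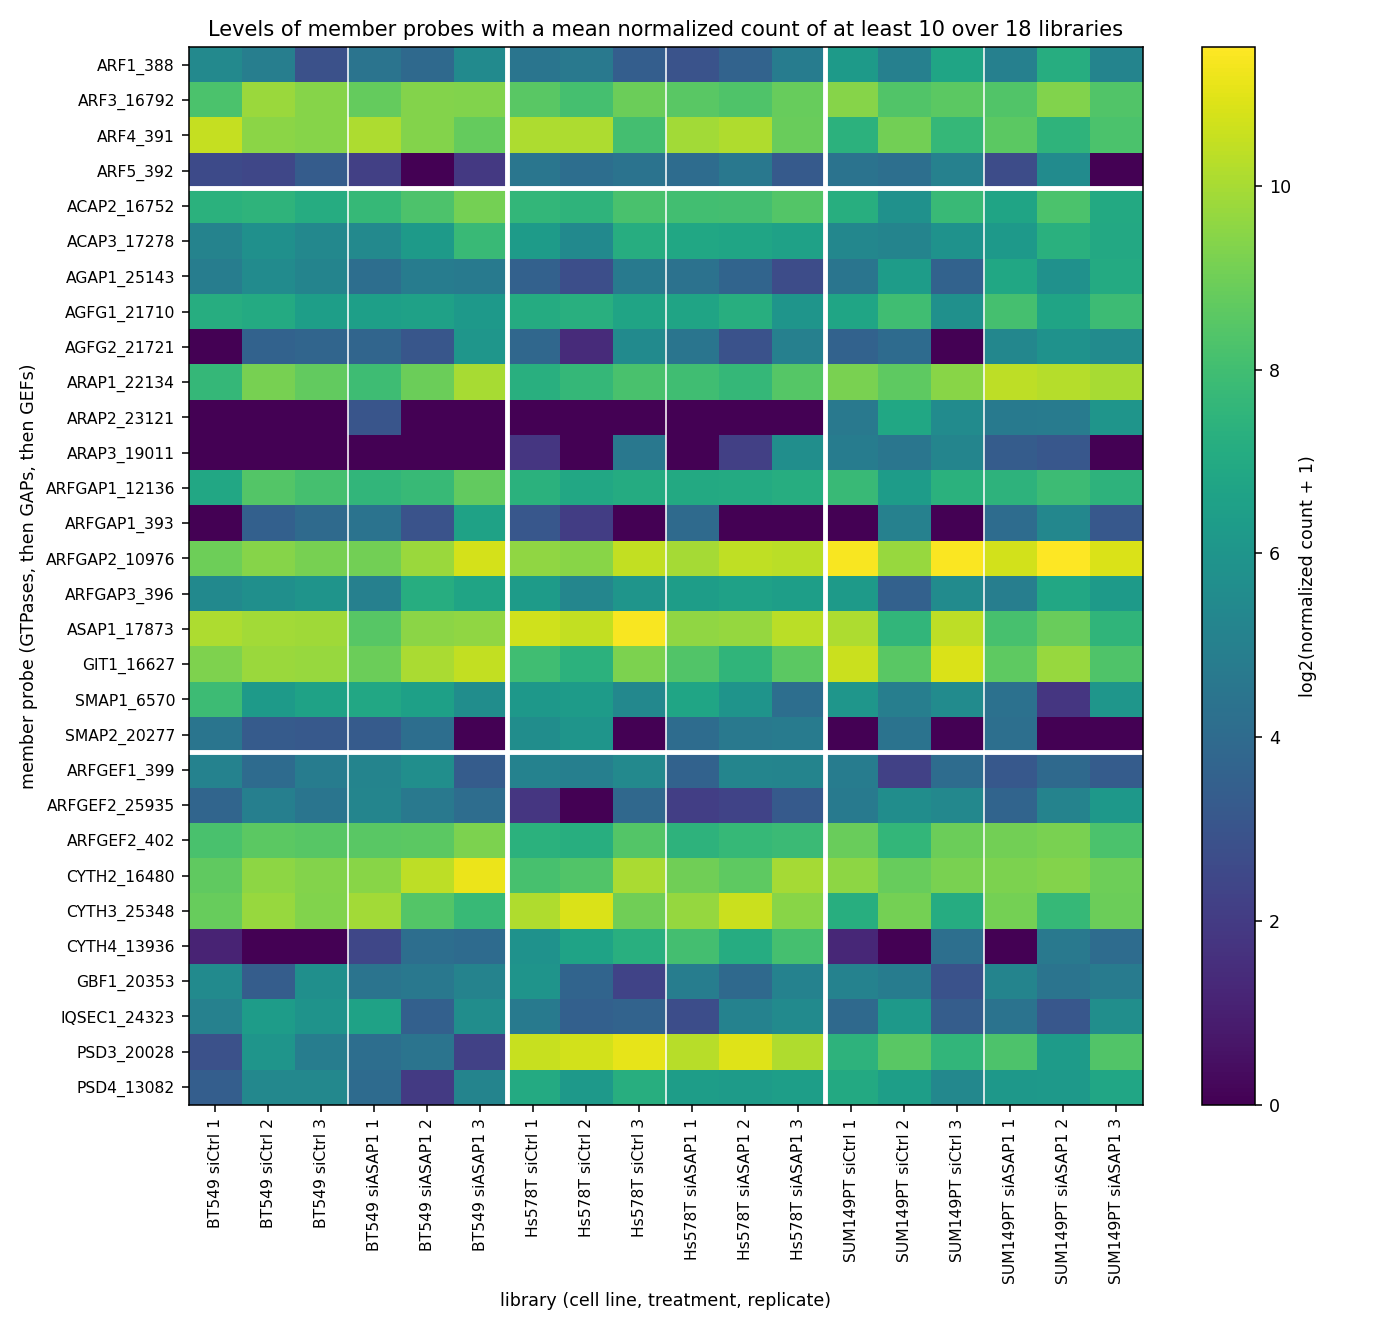
Level of each of the 30 member probes that passed the filter over 18 libraries, as log2(normalized count + 1) by color, in the 18 libraries (columns, by cell line, then siCtrl and siASAP1, then replicate). White lines separate GTPases, GAPs and GEFs and the cell lines. PSD3 and CYTH4 stand out in Hs578T, and ARAP2 is near 0 outside SUM149PT.

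Replicates of a group differed about as much for these genes as for others. The spread between replicates of a group, pooled over the 6 groups on the log2 scale, had a median SD of 0.88 over the 30 member probes and of 0.81 over all 10475 probes tested. It was smallest for ARFGEF2_402 (0.50) and ARF3 (0.51), and largest for SMAP2 (2.20) and ARFGAP1_393 (2.08), both at 0 in a library of a group whose other libraries held reads. SUM149PT siCtrl replicate 2 differed from the mean of the other 2 libraries of its group by over 1 log2 unit at 20 of 30 member probes, beside 58.55% of all probes. In the other 17 libraries this count ran from 4 to 16, beside 16.5% to 47.0% of all probes.

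The silenced gene comes first, since it checks the labels. ASAP1, the Arf GAP that binds focal adhesion proteins, is encoded on chromosome 8 (130052104 to 130443660, minus strand, GRCh38, GENCODE release 29) and had 1 probe, ASAP1_17873. In BT549 it held 1107, 966 and 944 normalized counts after siCtrl and 367, 730 and 783 after siASAP1. In Hs578T the values were 1641, 1414 and 2697 after siCtrl and 782, 825 and 1261 after siASAP1. In SUM149PT they were 1087, 189 and 1314 after siCtrl and 282, 468 and 184 after siASAP1. All siASAP1 libraries lay below all siCtrl libraries in BT549 and in Hs578T, while in SUM149PT the groups overlapped through siCtrl replicate 2.

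Mean ASAP1 after siASAP1 amounted to 62.3% of the siCtrl mean for BT549, 49.9% for Hs578T and 36.1% for SUM149PT. The Log2 FC was -0.75 ± 0.39 for BT549 (SE, n = 3 per group, 95% interval -1.62 to 0.11), -0.98 ± 0.32 for Hs578T (-1.70 to -0.26) and -1.16 ± 0.77 for SUM149PT (-2.94 to 0.62), with adjusted p = 0.65, adjusted p = 0.91 and adjusted p = 0.66. With the p of limma in place of the study's test, no line met both limits. Hs578T passed the unadjusted p but not the size, SUM149PT the size but not the p, and BT549 neither. With 1 library left out, Hs578T met both in 3 of 6 fits, with a Log2 FC of -1.20 without siASAP1 replicate 3, -1.06 without siCtrl replicate 1 and -1.17 without siCtrl replicate 2. The exact two-sided permutation test over 6 libraries gave p = 0.1, 0.1 and 0.3, and no split of 6 libraries into 3 and 3 can go below 0.1. With labels permuted within each line over all 18 libraries, the mean difference of -0.96 had an exact two-sided p = 0.015. In the limma fit over 18 libraries with the line as a covariate, the ASAP1 Log2 FC was -0.96 (95% interval -1.62 to -0.31, adjusted p = 0.13). Without SUM149PT siCtrl replicate 2 it was -1.20 with adjusted p = 0.019, and within SUM149PT -2.04 ± 0.46 with adjusted p = 0.064. That library was left out because of its values, its low ASAP1 included, so both are a description and not a further test. Without SUM149PT siASAP1 replicate 2 the value within the line was -1.50 ± 0.88 (adjusted p = 0.49). A difference in ASAP1 response between the lines was not detected (limma interaction, adjusted p = 1.00).

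**Figure D2:**
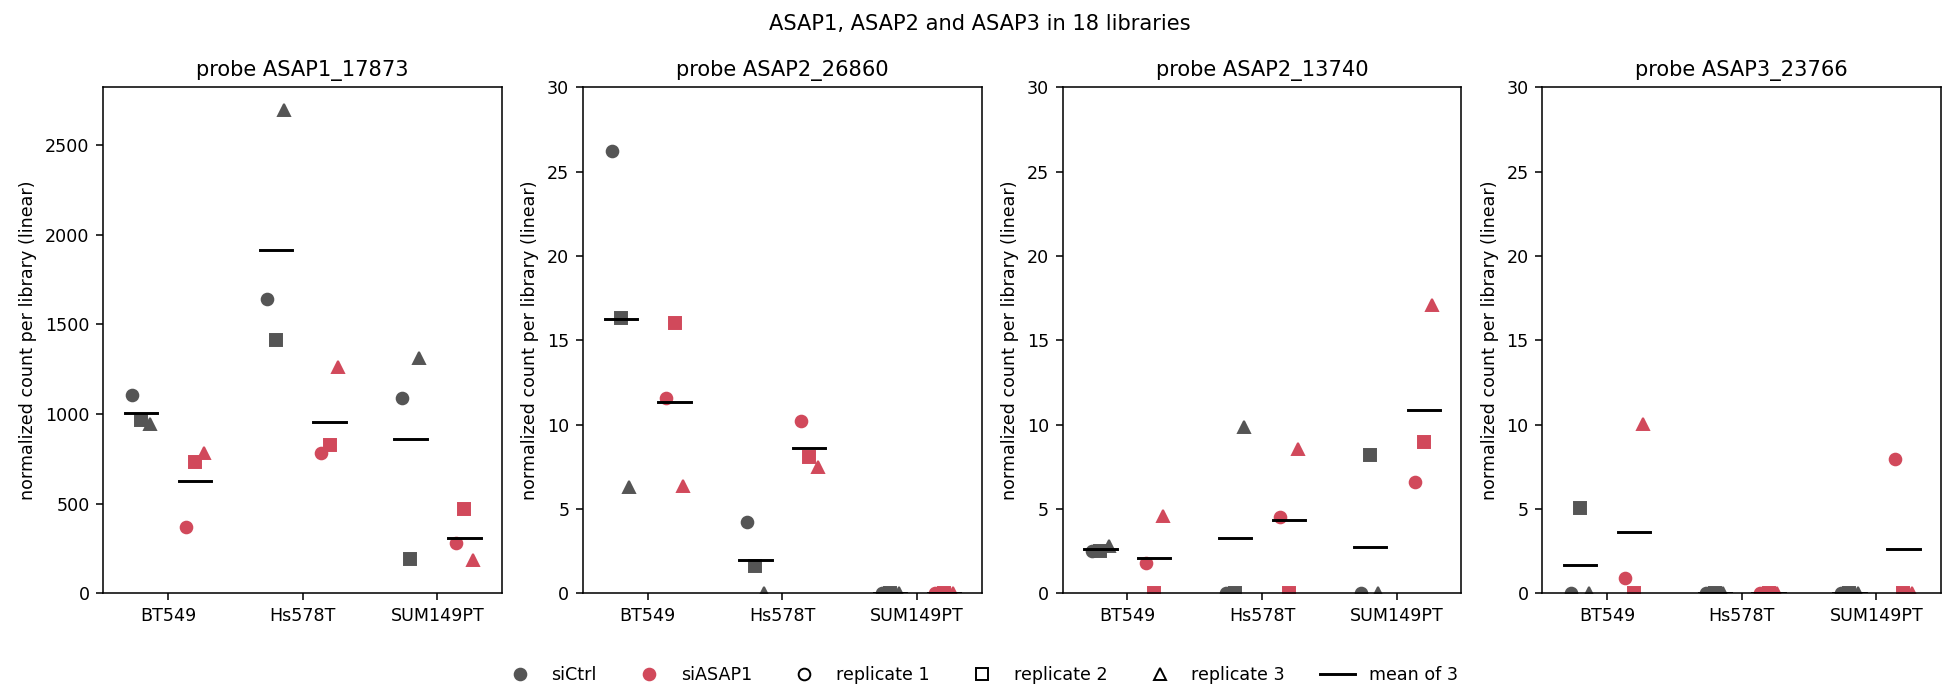
Normalized counts (linear axes starting at 0) of the probes of ASAP1, ASAP2 and ASAP3 in each library, by cell line and treatment, with the replicate number as marker shape and the mean of 3 as a bar. ASAP1 lay lower after siASAP1 in BT549 and Hs578T with no overlap, and 1 SUM149PT siCtrl library lay at 189, while ASAP2 and ASAP3 stayed at or under 26.2 in every library (axis to 30).

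The paralogs ASAP2 and ASAP3 were near the floor, so only large changes could have been seen. ASAP2, a GAP of the same domain layout as ASAP1, is encoded on chromosome 2 (9206765 to 9405683, plus strand). Its probe ASAP2_26860 held 26.2, 16.4 and 6.31 normalized counts after siCtrl and 11.6, 16.0 and 6.39 after siASAP1 in BT549, where the groups overlapped. In Hs578T it held 4.22, 1.63 and 0 after siCtrl and 10.2, 8.10 and 7.46 after siASAP1, with no overlap, from 5, 2 and 0 reads against 9, 14 and 7. All 6 SUM149PT libraries were at 0, which allows up to 2.73 to 4.80 normalized counts, depending on the library. This probe passed the filter in BT549 alone, where the Log2 FC was -0.38 (95% interval -2.36 to 1.61, adjusted p = 0.90). With no filter on low values, the Log2 FC was 1.99 in Hs578T (95% interval -0.40 to 4.38, adjusted p = 1.0), the interaction over lines had an adjusted p = 0.78, and the siCtrl levels differed between the lines (adjusted p = 0.029), with BT549 highest. Unfiltered fits hold many probes with no read, so their errors lean on those probes.

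The other ASAP2 probe, ASAP2_13740, did not exceed 17.1 normalized counts. In SUM149PT it held 0, 8.20 and 0 after siCtrl and 6.62, 8.97 and 17.1 after siASAP1, and the 8.20 belonged to the doubted replicate 2. With no filter its Log2 FC there was 2.41 (95% interval -1.12 to 5.94, adjusted p = 0.92). ASAP3, encoded on chromosome 1 (23428563 to 23484568, minus strand), was read in 4 of 18 libraries, at 5.03, 0.889, 10.0 and 7.94 normalized counts, 1 of them siCtrl and 3 siASAP1. With no filter and over 18 libraries, the Log2 FC was 0.54 (95% interval -0.34 to 1.42) for ASAP2_26860, 0.88 (-0.59 to 2.35) for ASAP2_13740 and 0.55 (-0.58 to 1.68) for ASAP3, each with an adjusted p = 0.75. No change of a paralog was shown, and these intervals do not exclude a rise of over 1 log2 unit in either paralog.

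Baseline levels were compared between the lines in the 9 siCtrl libraries, which asks how far the Arf machinery differs before ASAP1 is silenced. The GEFs PSD3 and CYTH4 were highest in Hs578T, and the GAPs ARAP2 and ARAP3 were highest in SUM149PT. Of 29 member probes tested, 5 differed between lines in the F test of limma (adjusted p under 0.05) beside 27% of all 10255 probes. They were PSD3, CYTH4, ARAP2, ARAP3 and ARFGEF2_25935. CYTH4 passed the filter on low values only through Hs578T, and ARAP2 and ARAP3 only through SUM149PT, so these 3 had to differ and the count is a description. With no filter, 4 of 47 member probes differed (12.2% of all 21111), among which ASAP2_26860 took the place of ARAP3 and ARFGEF2_25935. By pairs, with an adjusted p under 0.05 and an absolute difference over 1, Hs578T exceeded BT549 at 2 member probes (7.58% of all probes) and was lower at 0 (6.26%). SUM149PT exceeded BT549 at 4 (9.4%) and was lower at 0 (8.76%). Against Hs578T, SUM149PT was higher at 2 (9.64%) and lower at 3 (10.5%). The lines differ in many genes besides these, and each pair of lines shares a line with the others.

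PSD3, a GEF that acts on ARF6, was read at a different level in each line. After siCtrl it held 1502, 1710 and 2137 normalized counts in Hs578T, 173, 382 and 187 in SUM149PT and 6.24, 63.5 and 28.8 in BT549, with no overlap between the lines. Hs578T exceeded BT549 by 6.20 ± 0.71 log2 units (SE, adjusted p = 2.7e-04), and SUM149PT exceeded BT549 by 3.27 ± 0.71 (adjusted p = 0.0089). The difference of SUM149PT minus Hs578T was -2.93 ± 0.71 (adjusted p = 0.015). With no filter on low values, Hs578T still differed from BT549 (adjusted p = 0.0046), while the difference of SUM149PT from BT549 (adjusted p = 0.050, just above the threshold) and from Hs578T (adjusted p = 0.072) no longer passed. The latter was also lost in 3 fits with 1 siCtrl library left out, with adjusted p from 0.054 to 0.058. In the siASAP1 libraries, which share no library with these, PSD3 held 1137 to 1962 in Hs578T, 78.2 to 338 in SUM149PT and 3.65 to 20.8 in BT549, in the same order and with adjusted p = 1.0e-04 across lines.

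CYTH4, a cytohesin GEF best known from blood cells, was read mainly in Hs578T. It held 58.2, 102 and 155 normalized counts there after siCtrl, 1.25, 0 and 0 in BT549 and 1.43, 0 and 17.6 in SUM149PT. The BT549 value rests on 1 read, under the floor of 3 reads per library, and cannot be told from 0. Taken as read, the ratio of Hs578T to BT549 was 252, so its size is not set by these data. Its exact 95% counting interval ran from 45.3 to 9968, which covers counting error alone and takes no account of the floor. The difference of SUM149PT minus Hs578T was -4.79 ± 1.03 log2 units (SE), and with no filter on low values the F test across lines had an adjusted p = 0.026. After siASAP1 the F test across lines also passed (adjusted p = 0.011), with 139 to 279 in Hs578T against at most 17.0 in BT549 and 24.4 in SUM149PT.

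ARAP2 and ARAP3 are Arf GAPs that respond to phosphoinositides. ARAP2 held 24.3, 117 and 46.4 normalized counts in SUM149PT after siCtrl and 0 in all 6 siCtrl libraries of BT549 and Hs578T, so its mean was at least 24.2-fold higher than in BT549 and at least 23.6-fold higher than in Hs578T, with the floor of 3 reads per library. With no filter on low values the F test across lines had an adjusted p = 0.0011. The highest of these values, 117, came from the doubted siCtrl replicate 2. Without that library the mean was 35.3, at least 13.7-fold higher than in BT549 and at least 13.4-fold higher than in Hs578T, and ARAP2 fell under the filter in the siCtrl libraries. It was also seen in all 3 SUM149PT siASAP1 libraries (25.1, 26.9 and 63.1), in 1 BT549 siASAP1 library (7.11) and in none of Hs578T. There too it passed the filter only through SUM149PT.

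ARAP3 held 27.2, 21.9 and 36.8 in SUM149PT after siCtrl, 2.53, 0 and 23.6 in Hs578T and 0 in BT549, at least 11.1-fold higher in SUM149PT than in BT549. With no filter on low values the call across lines was lost (adjusted p = 0.077). This order was not seen after siASAP1, where ARAP3 held 9.26, 7.69 and 0 in SUM149PT and 0, 3.47 and 51.2 in Hs578T, and its mean lay under the filter, so it was not tested there. The fifth call was a probe of ARFGEF2, a GEF of the trans-Golgi and recycling endosomes. ARFGEF2_25935 was higher in SUM149PT (25.7, 49.2 and 40.0) than in Hs578T (2.53, 0 and 13.8) by 3.35 ± 0.93 log2 units (adjusted p = 0.030), and with no filter its F test across lines did not pass (adjusted p = 0.15). With 1 siCtrl library left out, that F test passed in 1 of 9 fits. The other probe of this gene, ARFGEF2_402, differed by 0.79 ± 0.47 (adjusted p = 0.28), and the reads of both probes added together did not differ (0.94, adjusted p = 0.18).

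**Figure D3:**
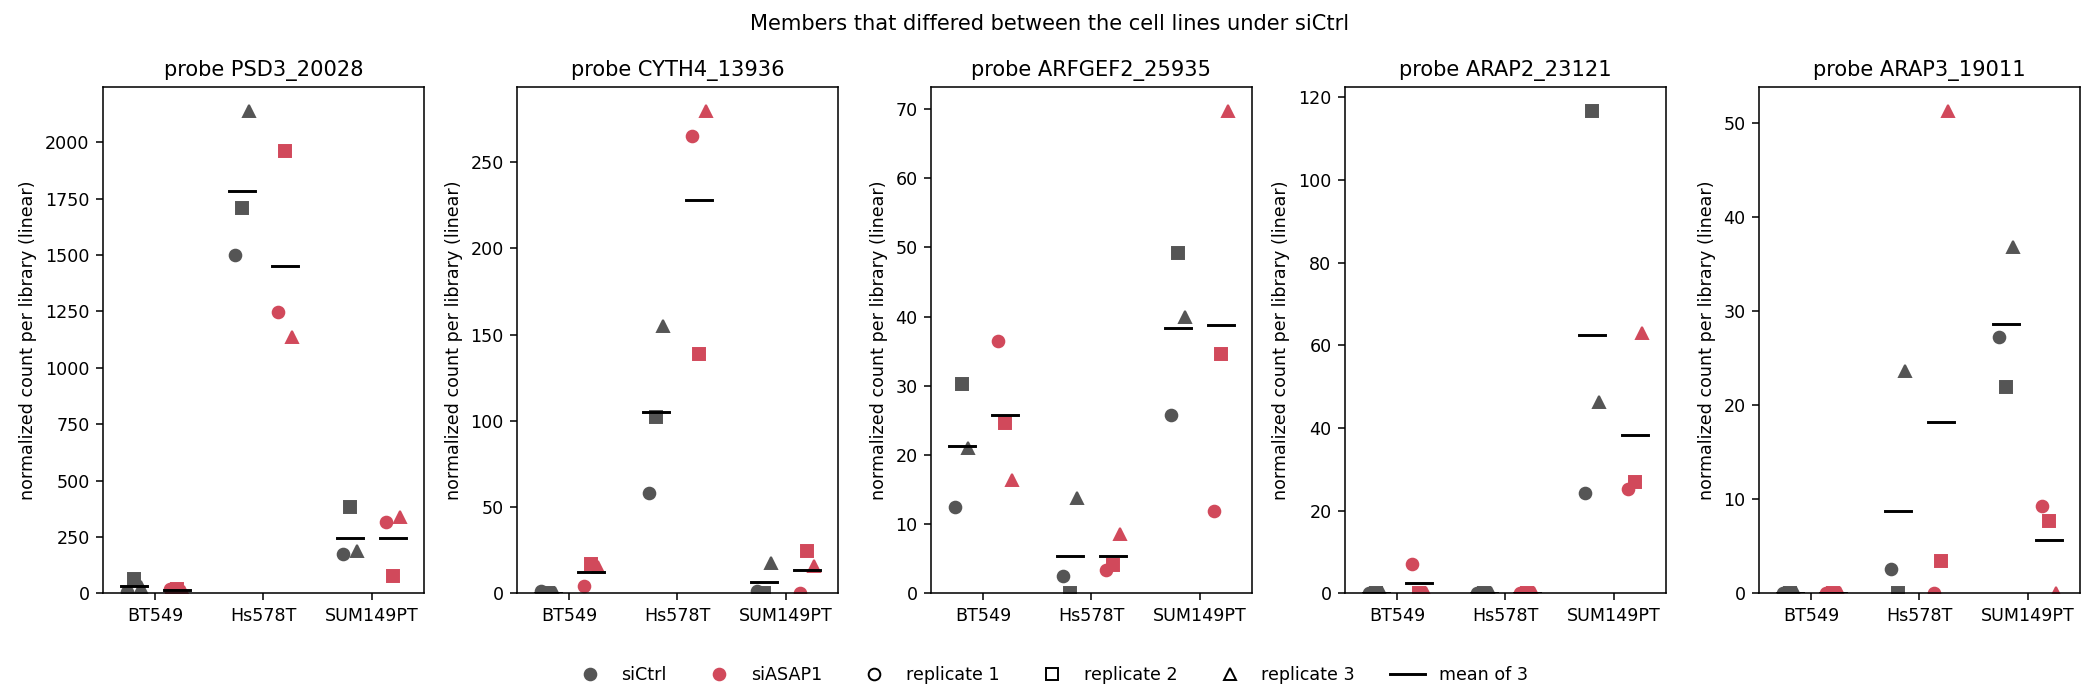
Normalized counts (linear axes starting at 0) of the 5 member probes that differed between lines after siCtrl, in each library, with siCtrl in grey, siASAP1 in red, the replicate number as marker shape and the mean of 3 as a bar. PSD3 and CYTH4 were highest in Hs578T under both treatments, and the ARAP3 order after siCtrl was not seen after siASAP1.

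Among the other members, the next smallest F tests did not pass the adjusted threshold. For the GTPases these were ARF5 (adjusted p = 0.077), ARF4 (adjusted p = 0.12) and ARF1 (adjusted p = 0.19), which act at the Golgi. ARF5 held at most 9.12 normalized counts in BT549 after siCtrl, 17.1 to 21.9 in Hs578T and 17.3 to 32.0 in SUM149PT, so that BT549 did not overlap the other lines. ARF4 held 678 to 1429 in BT549, 265 to 1088 in Hs578T and 166 to 525 in SUM149PT, so that Hs578T overlapped both other lines. ARF1 held 6.31 to 41.2 in BT549, 9.85 to 24.5 in Hs578T and 31.0 to 107 in SUM149PT. ARF3, the remaining GTPase that passed the filter, ran from 277 to 878 over all siCtrl libraries. For ARFGAP2, a GAP of Golgi COPI vesicles, the F test gave an adjusted p = 0.067, with 508 to 673 in BT549, 707 to 1421 in Hs578T and 845 to 2802 in SUM149PT. The pairwise test still called it higher in SUM149PT than in BT549 (1.67 ± 0.49 log2 units, adjusted p = 0.039), and CYTH3, a cytohesin GEF, lower in SUM149PT than in Hs578T (-2.19 ± 0.62, adjusted p = 0.032). ASAP1 itself did not pass (adjusted p = 0.22). Its siCtrl means were 1918 ± 685 in Hs578T (SD, n = 3), 1006 ± 88.1 in BT549 and 863 ± 595 in SUM149PT, and neighbours in this order did not differ beyond their spread (adjusted p = 0.44 and adjusted p = 0.57). The place of SUM149PT below BT549 rests on SUM149PT siCtrl replicate 2. Without that library the SUM149PT mean was 1200, and SUM149PT lay above BT549 by 0.25 ± 0.31 log2 units (limma, adjusted p = 0.55).

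The library SUM149PT siCtrl replicate 2 bears on these counts. Without it, 10 of 28 member probes differed between lines (45.1% of all probes), among them PSD3, CYTH4 and ARAP3 of the 5 above, and ARF4, ARF5, ARFGAP2, ARAP1, GIT1, CYTH3 and IQSEC1. Without Hs578T siCtrl replicate 3, 7 of 28 differed (2683 of all 10257 probes), the 5 above with ARF4 and CYTH3. In the 9 siASAP1 libraries, 9 of 30 member probes differed (37.1% of all probes), and 3 of them, PSD3, CYTH4 and ARAP2, were among the 5. ASAP1 was 1 of the 9, with an adjusted p = 0.026 and means of 956 in Hs578T, 627 in BT549 and 311 in SUM149PT. Without BT549 siASAP1 replicate 1, 12 of 30 differed there (41.6% of all probes), and without SUM149PT siASAP1 replicate 2, 12 of 29 (44.3%), with PSD3, CYTH4, ARAP2 and ASAP1 among them both times.

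The response to siASAP1 was then compared within each line. Few members passed. With all libraries in the fit, those that met the study's limits were GAPs and GEFs that were higher after siASAP1, but without SUM149PT siASAP1 replicate 2 this turned in SUM149PT, where none met them upwards and ARAP3 and the GTPase ARF5 met them downwards. Both of these passed the filter only through the siCtrl libraries, so their calls are a description. In BT549, 2 of 30 member probes met them upwards (3.28% of all 9666 probes) and 0 downwards (3.69%). In Hs578T, 1 of 27 did upwards (1.34% of 9500) and 0 downwards (1.44%). In SUM149PT, 3 of 29 did upwards (5.27% of 10078) and 0 downwards (4.29%). Without SUM149PT siASAP1 replicate 2 the counts there were 0 of 29 upwards (5.21% of all probes) and 2 downwards (6.2%). Counts this small do not set the members apart from all probes. No probe of any gene had an adjusted limma p under 0.05 within a line (0%, 0% and 0% of all probes), while 2, 2 and 3 member probes had an unadjusted p under 0.05, beside 7.8%, 5.28% and 10.2% of all probes. In BT549 and SUM149PT the count of 0 at an adjusted p changed with the doubted libraries. Without BT549 siASAP1 replicate 1, 544 probes passed in BT549 (5.63%), and without SUM149PT siCtrl replicate 2, 107 passed in SUM149PT (1.08%), none of them a member in either fit. Without SUM149PT siASAP1 replicate 2 it stayed at 0 (0%), as did the count in Hs578T without siCtrl replicate 3. With voom weights the counts of members were the same, and 8 probes in BT549 had an adjusted p under 0.05, none of them a member. With the replicate number as a block in the limma fit, 37 of 9500 probes passed in Hs578T. ASAP1 was among them (adjusted p = 0.048). The same block gave 0 in BT549 and 0 in SUM149PT.

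Across the members the middle of the distribution stayed near that of all probes. The median Log2 FC of the members was 0.15 (BT549), 0.06 (Hs578T) and 0.11 (SUM149PT), against 0.00, 0.01 and 0.09 over all probes. The median absolute Log2 FC was 0.58, 0.37 and 0.53, against 0.52, 0.34 and 0.67. The 2 treatments did not overlap at 4 of 30 member probes in BT549 (13.9% of all probes), at 2 of 27 in Hs578T (12.1%) and at 4 of 29 in SUM149PT (17.3%). Besides ASAP1, these were AGAP1 and AGAP2 (lower) and ACAP2 (higher) in BT549, ARFGAP3 (higher) in Hs578T, and ACAP3, AGFG2 and ARAP1 (higher) and ARAP3 (lower) in SUM149PT. AGFG2 and ARAP3 passed the filter there only through their higher group. With 1 library fewer, groups separate more often: 13 of 29 did without BT549 siASAP1 replicate 1 (46.3% of all probes), 12 of 31 without SUM149PT siCtrl replicate 2 (44.8%) and 7 of 29 without SUM149PT siASAP1 replicate 2 (31.3%). ACAP3, AGFG2, ARAP1 and ARAP3 were among those of both SUM149PT counts.

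ACAP2, an ARF6 GAP, held 161, 179 and 139 normalized counts in BT549 after siCtrl and 206, 316 and 547 after siASAP1, with a Log2 FC of 1.05 ± 0.45 (SE, 95% interval 0.05 to 2.04, adjusted p = 0.63). CYTH2, a cytohesin GEF of ARF6 and ARF1, held 413, 762 and 658 after siCtrl and 694, 1328 and 2295 after siASAP1 in that line, with overlap, and a Log2 FC of 1.12 ± 0.47 (0.07 to 2.17, adjusted p = 0.63). With each of the 6 libraries left out in turn, the ACAP2 call was lost in 5 fits and the CYTH2 call in 4. Without siASAP1 replicate 3, the highest library at both, the values were 0.68 and 0.70. Without siASAP1 replicate 1, which resembled siCtrl, 6 of 29 member probes met the limits, 5 upwards (9.28% of all probes) and 1 downwards (13.2%). They were ACAP2, ACAP3, ARFGAP2, ARFGAP3 and CYTH2, which were higher, and CYTH3, which was lower (Log2 FC -1.20 ± 0.38). The ASAP1 Log2 FC in BT549 was then -0.41 ± 0.26.

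In Hs578T the single call was CYTH4, with 58.2, 102 and 155 normalized counts after siCtrl and 265, 139 and 279 after siASAP1. The groups overlapped through 1 library each, and the Log2 FC was 1.15 ± 0.45 (SE, 95% interval 0.15 to 2.15, adjusted p = 0.92), and 3 of the 6 fits with 1 library left out lost the call. Without siCtrl replicate 3, which stood apart, CYTH4 met the limits upwards and SMAP2 downwards, beside 314 and 320 of all 9505 probes. CYTH4 was low in the other lines, where it held 4.44, 17.0 and 15.5 after siASAP1 in BT549 against 1 read in 3 siCtrl libraries, and 0, 24.4 and 15.8 against 1.43, 0 and 17.6 in SUM149PT.

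In SUM149PT, ARAP1, an Arf GAP of the same family as ARAP2 and ARAP3, held 586, 408 and 708 normalized counts after siCtrl and 1312, 1202 and 1013 after siASAP1, with a Log2 FC of 1.08 ± 0.38 (SE, 95% interval 0.20 to 1.96, adjusted p = 0.42). ACAP3 held 38.6, 35.5 and 57.5 after siCtrl and 74.1, 158 and 121 after siASAP1, with 1.37 ± 0.55 (0.10 to 2.63, adjusted p = 0.46). AGFG2, a member of the GAP family with phenylalanine-glycine repeats, held 11.4, 15.5 and 0 after siCtrl and 39.7, 57.7 and 46.0 after siASAP1, with 3.03 ± 1.20 (0.27 to 5.79, adjusted p = 0.46). At all 3 genes every siASAP1 library lay above every siCtrl library, replicate 2 included. The AGFG2 Log2 FC rests in part on the siCtrl library at 0 and was 1.75 without it. Its siCtrl mean (8.98) lay under the filter, so it passed through the siASAP1 libraries, and its call was lost with no filter and with a pseudocount of 0.1. The calls of ACAP3 and ARAP1 were lost with upper-quartile scaling. Each of the 3 calls was lost in 4 of the 6 fits with 1 library left out. Without siASAP1 replicate 2 all 3 were lost, with a Log2 FC of 1.06 ± 0.45 for ARAP1, 1.12 ± 0.63 for ACAP3 and 2.89 ± 1.48 for AGFG2, while ARAP3 (-3.18 ± 1.34, adjusted p = 0.43) and ARF5 (-3.22 ± 1.34, adjusted p = 0.43) met the limits downwards. The siASAP1 means of ARAP3 and ARF5 were then 4.63 and 2.65, under the filter, which both passed through the siCtrl libraries alone.

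At AGAP1, GIT1 and CYTH3, named here after their values were seen, the SUM149PT groups overlapped through the libraries numbered 2. AGAP1, a GAP that binds the AP-3 adaptor, held 21.5, 81.1 and 11.2 after siCtrl and 116, 55.1 and 129 after siASAP1. GIT1, a scaffold GAP of focal adhesions, held 1542, 374 and 1881 after siCtrl and 406, 858 and 326 after siASAP1. CYTH3 held 149, 548 and 137 after siCtrl and 552, 209 and 489 after siASAP1. In each of the 3 genes siCtrl replicate 2 lay on the side of siASAP1 replicates 1 and 3. Without siCtrl replicate 2, 6 of 31 member probes met the limits, 4 upwards (14.4% of all probes) and 2 downwards (8.94%): AGAP1, AGFG2, ARFGAP1_393 and CYTH3 were higher, and ASAP1 and GIT1 were lower. AGFG2 and ARFGAP1_393 (0 in both siCtrl libraries left) passed the filter only through the siASAP1 libraries. ARAP1, with a Log2 FC of 0.86 ± 0.33, and ACAP3, with 1.23 ± 0.57, no longer met them.

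With both SUM149PT libraries numbered 2 left out, which compares 2 libraries with 2, 5 of 29 member probes met the limits upwards (23.5% of all probes) and 5 downwards (16.9%). They were AGAP1, AGFG1, AGFG2, CYTH3 and GIT2, which were higher, and ASAP1, GIT1, ARF1, ARF5 and ARAP3, which were lower. Of these 10, AGFG2 and GIT2 (0 in both siCtrl libraries left) passed the filter only through the siASAP1 libraries, and ARF5 and ARAP3 only through the siCtrl libraries. The Log2 FC was -2.39 ± 0.28 for ASAP1, -2.22 ± 0.23 for GIT1, 1.85 ± 0.28 for CYTH3 and 2.90 ± 0.65 for AGAP1. At an adjusted p under 0.05 the count was also 10 member probes, 7 higher and 3 lower, beside 37.8% of all probes. That set held ARAP1, PSD3, ARF4 and ARFGAP2 in place of AGFG2, ARF1, ARF5 and ARAP3. These libraries were left out because of their values, so these values are a description and not a further test.

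**Figure D4:**
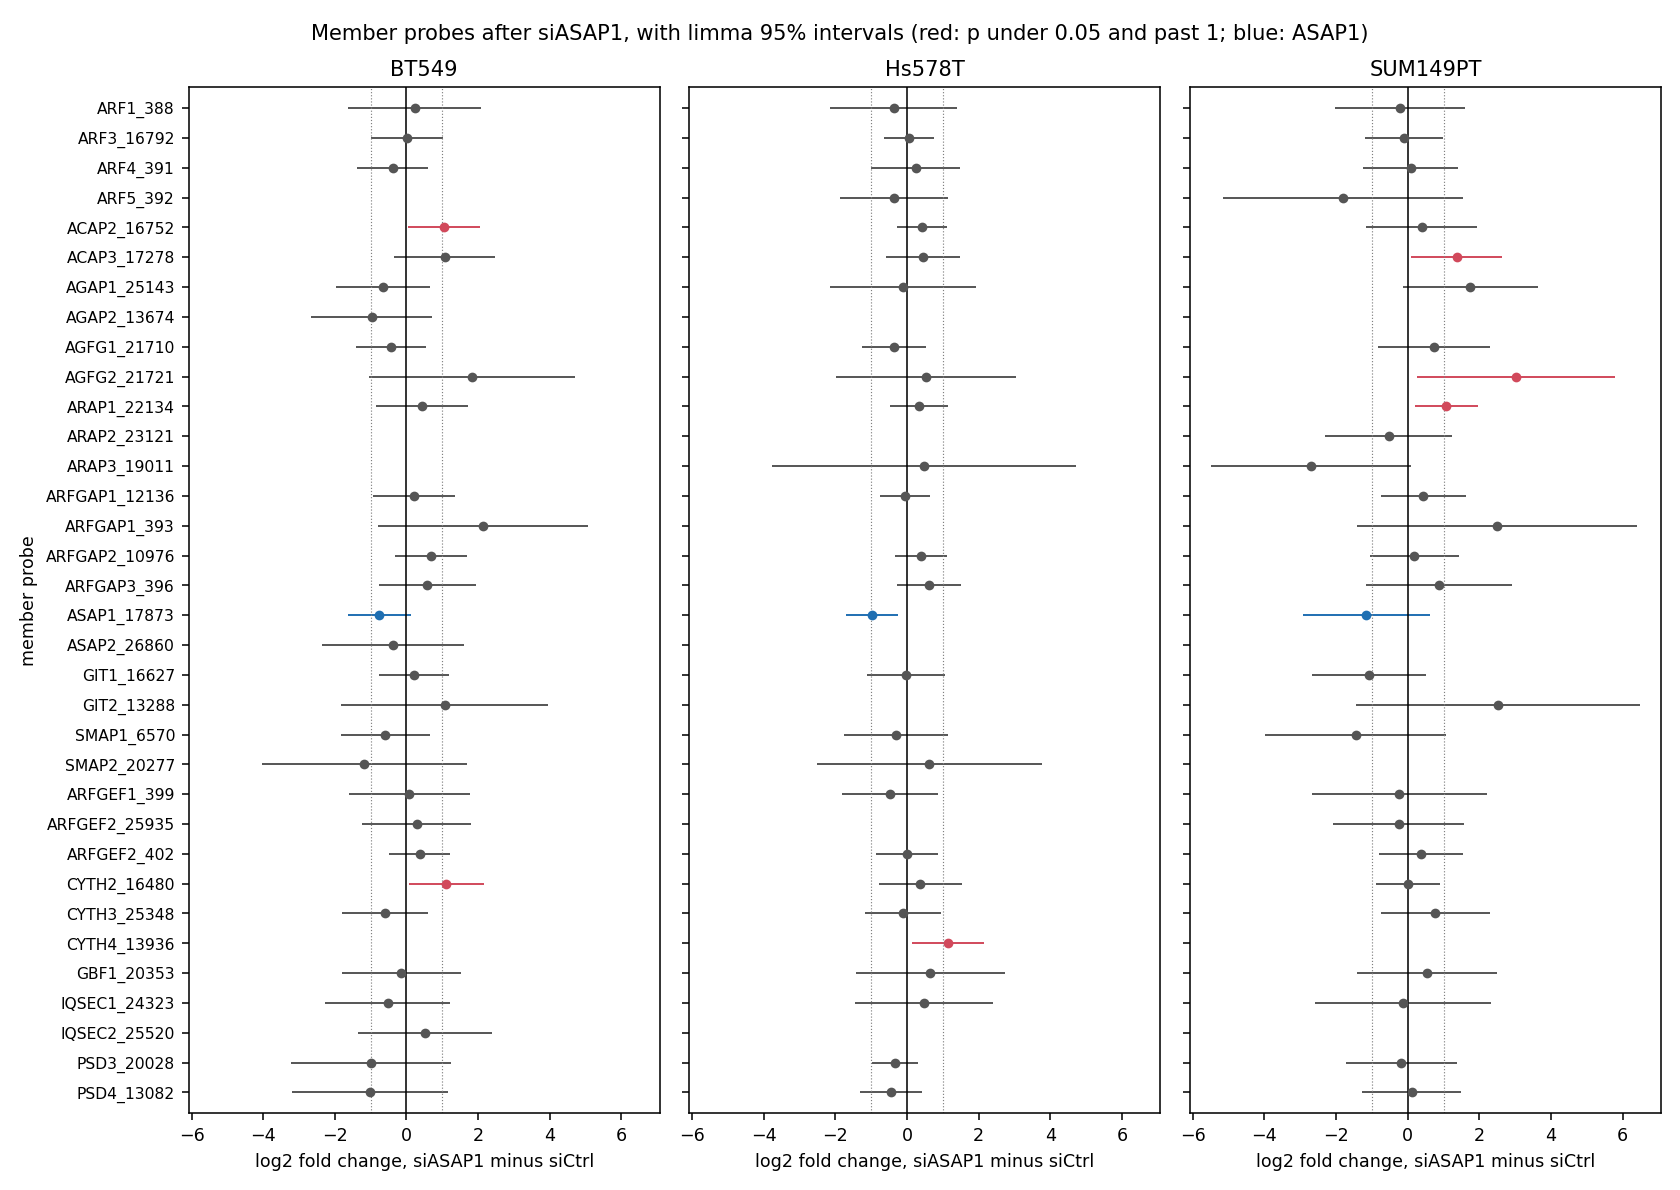
Log2 FC (siASAP1 minus siCtrl, in log2 units) of each member probe tested in each line, with the 95% interval of limma from 3 libraries per group, in the order GTPases, GAPs and GEFs. Red marks the 6 values that met the study's limits, blue marks ASAP1, dotted lines mark 1 and -1, and all 6 red values lie on the positive side, of which the 3 in SUM149PT were lost without siASAP1 replicate 2.

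Over the 18 libraries, with the line as a covariate, 0 of 30 member probes had an adjusted limma p under 0.05, against 71 higher (0.678%) and 111 lower (1.06%) among all 10475 probes. The count of members was also 0 with voom weights. An unadjusted p under 0.05 was reached by 6 member probes (15.8% of all probes). They were ASAP1, which was lower, and ACAP3, CYTH4, AGFG2, ARAP1 and ACAP2, which were higher, with adjusted p-values from 0.13 to 0.29. Of these, ACAP3 had a Log2 FC of 0.96 (95% interval 0.27 to 1.65, adjusted p = 0.15) and CYTH4 one of 1.80 (0.42 to 3.18, adjusted p = 0.17). The CYTH4 value rests in part on BT549, where the siCtrl libraries held 1 read in all, and exceeds its value in Hs578T alone. The next probe was ARF5, with -1.20 (-2.41 to 0.01, adjusted p = 0.32). Without SUM149PT siCtrl replicate 2, a library left out for values that include its ASAP1 level, ASAP1 was the 1 member with an adjusted p under 0.05, beside 0.577% of all probes that were higher and 0.952% that were lower, which is a description and not a further test. The median 95% interval of a member reached 0.87 log2 units to either side of its value (lowest 0.48, highest 1.86). The GTPases ARF3 (-0.01, -0.49 to 0.47) and ARF4 (-0.02, -0.70 to 0.65), both with many reads, had intervals around 0. The ARF4 value is a mean over lines and depends on the doubted libraries. Without BT549 siASAP1 replicate 1 its limma Log2 FC in BT549 was -0.72 ± 0.40 (adjusted p = 0.28). Without both SUM149PT libraries numbered 2 it was 0.90 ± 0.31 in SUM149PT (adjusted p = 0.049), again a description.

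A difference in response between the lines was not detected for any member. In the interaction test of limma, 0 of 30 member probes had an adjusted p under 0.05 (0.00955% of all probes, 1 of 10475), and 0 did with voom weights. At an unadjusted p under 0.05 the count of members was also 0, beside 6.22% of all probes. The smallest p belonged to AGAP1 (adjusted p = 0.87). Without SUM149PT siCtrl replicate 2, 3 of 29 member probes had an unadjusted p under 0.05, beside 16% of all probes, and 0 an adjusted one. This does not show that the lines responded alike, since each line had 3 libraries per treatment.

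Lists of proteins that work with Arf GTPases were read in the same fit over 18 libraries. Among Arf-like and SAR GTPases, 0 of 19 probes had an adjusted limma p under 0.05, beside 0.678% of all probes that were higher and 1.06% that were lower. Among those named were ARL2, a regulator of tubulin folding (Log2 FC -1.32 ± 0.56, adjusted p = 0.25), SAR1B (-0.37 ± 0.23, adjusted p = 0.46) and TRIM23 (0.43 ± 0.32, adjusted p = 0.56). In this list 1 higher probe, not named here, had an unadjusted limma p under 0.05. Among the clathrin adaptors of the Golgi and endosomes, 0 of 18 passed, led by GGA2 (-0.43 ± 0.19, adjusted p = 0.27), AP1M1 (0.60 ± 0.28, adjusted p = 0.29), AP3D1 (-0.27 ± 0.17, adjusted p = 0.47) and GGA1 (0.45 ± 0.30, adjusted p = 0.50). Among other Arf effectors, 0 of 15 passed, led by the JNK scaffold SPAG9 (0.45 ± 0.17) and RAB11FIP3 (0.88 ± 0.33), both with adjusted p = 0.18, while the lower ones were led by ARFIP2 (-0.27 ± 0.26, adjusted p = 0.68) and the phospholipase PLD1 (-0.16 ± 0.22, adjusted p = 0.78). At an unadjusted p under 0.05 these lists had 2, 2 and 2 probes (15.8% of all probes), and with voom weights 1, 1 and 4 (15.9%), again with 0 at an adjusted p under 0.05.

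The COPI coat, which ARF1 recruits to Golgi membranes, held the 1 gene that passed, at 1 of 8 probes. Among all probes, 0.678% were higher and 1.06% lower at this threshold. ARCN1, the delta subunit of the coat, fell by 0.74 on the log2 scale (SE 0.18, adjusted p = 0.043). It held 356, 319 and 293 normalized counts after siCtrl and 212, 194 and 217 after siASAP1 in BT549, 334, 252 and 474 against 200.6, 189.6 and 247 in Hs578T, and 276, 303 and 312 against 102, 177 and 216 in SUM149PT. All 9 siASAP1 libraries lay below all 9 siCtrl libraries, the doubted ones included. ARCN1 was named for its p in these same libraries, so this is a description and no further support. The share of all probes that separate in this way is not given here. The call was lost in 16 of the 18 fits with 1 library left out and with scaling by library totals (adjusted p = 0.085), and adjusted p-values ran from 0.025 to 0.11 over the alternatives. The Log2 FC stayed between -0.81 and -0.61 in all of them. Of the other COPI probes, COPE had a Log2 FC of -0.50 ± 0.27, COPB2 0.42 ± 0.20 and COPG2 0.22 ± 0.36 (adjusted p = 0.37, adjusted p = 0.32 and adjusted p = 0.83). The median Log2 FC of the 8 COPI probes was -0.41, against -0.17 for the Arf-like GTPases, -0.07 for the adaptors, 0.43 for the other effectors and 0.02 over all probes.

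Within lines, the study's limits were met by 1 of the 59 probes of these lists tested in BT549, by 2 of the 59 for SUM149PT and by none of the 58 for Hs578T, shares no larger than those of all probes given above. Named after their values were seen, they were PIP5K1C in BT549 (Log2 FC 2.05, adjusted p = 0.63) and, in SUM149PT, MAPK8IP3 (1.5, adjusted p = 0.49) and ARL2 (-2.69, adjusted p = 0.46). PIP5K1C held 6.24, 12.6 and 4.21 normalized counts after siCtrl in BT549, a mean under the filter. It passed only through the siASAP1 libraries, so its call is a description. ARL2 met the limits without either SUM149PT library numbered 2 (-3.64 and -3.44) and PIP5K1C without BT549 siASAP1 replicate 1 (2.56), while MAPK8IP3 no longer did without siASAP1 replicate 2 (1.13). Without siASAP1 replicate 2 the remaining ARL2 values after siASAP1, 4.0 and 7.9, lay under the filter, which ARL2 then passed only through siCtrl. PIP5K1C again passed only through siASAP1, so both are a description. Between the lines after siCtrl, 8 of 18 adaptor probes differed in the F test, as did 3 of 19 for the Arf-like GTPases, 2 of 8 for COPI and 2 of 14 for the other effectors, beside 27% of all probes. Of these, 2 adaptor probes (both of AP1M2) and 2 of Arf-like GTPases (ARL10 and ARL14) passed the filter through 1 line alone and had to differ, so the counts are a description.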

How the data were processed

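TempO-Seq libraries were assigned to line, treatment and replicate by their labels. The authors deposited log2 values per probe: read counts divided by a size factor from DESeq2, plus 1, with replicates kept apart. The submitters' notes also name bcl2fastq and Bowtie, and the genome build is not given in the sources used here. Undoing the log2 gave whole reads for 100% of values (tolerance 0.01 reads). limma 3.58.1 in R 4.3.3 (lmFit, eBayes with trend) was run on the deposited values, by line, over 18 libraries with line as covariate, with an interaction, and between lines in siCtrl libraries, tested first on simulated reads. ASAP1 was also tested by exact permutation in Python 3.11.15, and figures used matplotlib 3.10.9. Scaling, filter, pseudocount, block, voom weights, summed probes and left-out libraries were alternatives.

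Named were ASAP1 to ASAP3, members past a limit, per class the 3 with the smallest F p between lines, members under the filter, and per other list up to 2 genes in each direction with the smallest p. Other genes were named after their values were seen. 1 gene of the other lists is not reported here. The members and lists were chosen with earlier results of these data known. P-values measure the spread between cultures of 1 line each.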

Additional observations from a re-analysis of the deposited data

How the results depend on the processing

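Of 446 values over the alternatives of 25 results, 355 kept their side of the threshold (counts within 1.5 times) and 91 did not. None of the 19 results with a direction reversed. With each library left out in turn, the count of members meeting the study's limits ran from 0 to 6 (BT549), 0 to 2 (Hs578T) and 1 to 6 (SUM149PT), the count called between lines from 3 to 10, and the count over 18 libraries from 0 to 1. In the same runs the ASAP1 Log2 FC ran from -0.95 to -0.41 in BT549, -1.20 to -0.71 in Hs578T, -2.04 to -0.64 in SUM149PT and -1.20 to -0.80 over 18 libraries. Scaling by the upper quartile gave 2 members in Hs578T, with ASAP1 at -1.01 and past the limits, and 1 in SUM149PT. All 18 libraries in a single fit and no filter each gave 0 in Hs578T, a minimum mean of 50 gave 1 member between lines, and the siASAP1 libraries gave 9, or 12 with BT549 siASAP1 replicate 1 or SUM149PT siASAP1 replicate 2 also left out, chosen after the data were seen. With both SUM149PT libraries numbered 2 left out, a choice made after the data were seen, 10 members met the limits in SUM149PT, with ASAP1 at -2.39, and 1 (ASAP1, -1.25) passed over 18 libraries. With SUM149PT siCtrl replicate 2 and BT549 siASAP1 replicate 1 left out, also chosen afterwards, 1 passed (ASAP1, -1.13). The probes of any gene at an adjusted p under 0.05, 0 in each line, became 31 in BT549, 3 in Hs578T and 260 in SUM149PT with all 18 libraries in a single fit, and at most 8 with other scaling, filters, summed probes or voom weights. What causes these differences was not tested.

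The labels give the treatments the same replicate numbers. Deviations from the group means of same-numbered libraries correlated from -0.65 to 0.35, over 0.1 in 3 of 9 pairs. By replicate number the values were -0.18, -0.35 and 0.11 in BT549 and 0.099, 0.34 and 0.35 in Hs578T. In SUM149PT they were -0.32, -0.65 and -0.34. The labels do not say whether same-numbered libraries were handled together, and this was not tested. With the replicate block, 1 member met the limits in BT549 (CYTH2), 1 in Hs578T (CYTH4) and 0 in SUM149PT, ASAP1 in Hs578T had an adjusted p = 0.048, and the calls over all probes at an adjusted p under 0.05 went from 0 to 37 in Hs578T and from 182 to 34 over 18 libraries, where ARCN1 had an adjusted p = 0.11.

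Scaling by library totals moved the median Log2 FC of all probes over 18 libraries from 0.02 to 0.15 and in SUM149PT from 0.09 to 0.30. The split of probes higher and lower went from 127 and 137 to 196 and 83 in Hs578T, from 531 and 432 to 761 and 267 in SUM149PT, and from 71 and 111 to 122 and 80 over 18 libraries. ASAP3, ARF6 and the other probes under the filter held few reads, and small changes at them were not detectable; whether depth or ligation keeps them low was not tested.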
